A study of Mus musculus with 24 samples.

Results

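The Trbj1 cluster is the first of the 2 groups of joining (J) segments of the mouse T cell receptor beta locus. Its members were taken by name: the segments TRBJ1-1, TRBJ1-2, TRBJ1-3, TRBJ1-4 and TRBJ1-5, which are 5 of the 11 Tcrb J segments and 5 of the 59 J segments listed over the 4 receptor chains. The choice used names and no measured value, but it was made with earlier results of these data known. The annotation also lists Trbj1-6 and Trbj1-7, which are not among the J segments of the data and so do not enter the J1 totals. The study profiled receptor transcripts of the alpha, beta, gamma and delta chains in thymocytes, with 24 libraries in all, of which the 6 Tcrb libraries are used here. The control group was 3 libraries of wild-type mice. The other group was 3 libraries of Satb1 knockout mice, whose genotype is labelled Satb1-/- while the series design names Satb1cKO, a conditional knockout; the Cre driver is not given in the sources used here. Both groups were thymus samples of C57BL/6 mice aged 4 to 12 weeks, with no treatment named.

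A beta chain gene is assembled in developing thymocytes by joining a diversity (D) to a J segment and then a variable (V) segment to that DJ unit. The Trbj1 segments lie between Trbd1 and the constant gene Trbc1, so a Trbj1 transcript is normally spliced to Trbc1; the Trbj2 segments lie downstream, between Trbd2 and Trbc2, and can receive either D segment. Each J segment encodes the end of the third complementarity-determining loop and the first strand after it, which opens with a conserved Phe-Gly-X-Gly motif. Satb1, a chromatin organiser of the nucleus, is abundant in thymocytes.

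The reference sequences of the 5 segments are shown because they are what tells the segments apart in a transcript. They are GENCODE M21 sequences (GRCm38), 5′ to 3′ on the plus strand, and capitals mark the codons of the Phe-Gly-X-Gly motif in its reading frame:
TRBJ1-1: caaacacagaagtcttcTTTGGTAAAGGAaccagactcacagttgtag
TRBJ1-2: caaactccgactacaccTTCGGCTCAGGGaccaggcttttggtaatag
TRBJ1-3: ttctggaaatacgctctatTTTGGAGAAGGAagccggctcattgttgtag
TRBJ1-4: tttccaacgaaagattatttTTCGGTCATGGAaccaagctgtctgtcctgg
TRBJ1-5: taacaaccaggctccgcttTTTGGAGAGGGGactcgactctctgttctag
The motif was found in 5 of 5 members, in 6 of the 6 Trbj2 segments of the tables and in 75.7% of the 70 annotated T cell receptor J transcripts. On chromosome 6 of GRCm38, TRBJ1-1 spans chr6:41533864-41533911, TRBJ1-2 chr6:41534001-41534048, TRBJ1-3 chr6:41534323-41534372, TRBJ1-4 chr6:41534811-41534861 and TRBJ1-5 chr6:41535084-41535133. They begin 651, 788, 1110, 1598 and 1871 bases past the end of Trbd1, and their lengths run from 48 to 51 bases. These positions come from the annotation and not from the data tables, whose genome build is not given in the sources used here.

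A value gives how much of a library, in percent, was assigned to one V segment joined to one J segment, in a table of 22 V by 11 J segments. Such shares sum to 100, so a gain of J1 and a loss of J2 are one measurement. In these RNA-based shares, more cells with a J1 join and more transcript per such cell cannot be told apart. The tables give no counts, so depth is unknown. The resolution of a library, read as its smallest value above 0, was between 0.00570% and 0.0133%, coarsest in knockout replicate 2. In each of the 6 libraries 100% of the values above 0 were whole multiples of that smallest value (to within 0.01 of a multiple); no counts were derived from this, since what a multiple stands for is not stated. Of the 110 J1 pairs, 106 to 108 were above 0 in a library, 103 were above 0 in all 6 libraries, and the 7 others all involved TRBV24 or TRBV30. Satb1 itself and cell type markers are not measured in these tables, so neither the genotype nor the cell type label could be checked. Nothing in the labels states that each replicate is its own mouse, so p-values measure only the spread between these libraries, which may be technical. Means are given ± SD with n = 3 libraries per genotype.

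The comparison of knockout with wild type asked how use of the J1 segments differed without Satb1. The J1 cluster as a whole was larger in the knockout. It held 33.0%, 31.2% and 31.4% of wild-type replicates 1, 2 and 3, and 38.9%, 40.5% and 35.5% of knockout replicates 1, 2 and 3. The 2 groups did not overlap, and knockout replicate 3 lay closest to the wild type. The means were 31.9% ± 0.996 and 38.3% ± 2.54, a difference of 6.41 percentage points (exact two-sided permutation p = 0.1, the smallest that 20 arrangements of 3 against 3 allow, adjusted p = 0.6 over 6 single values). Per unit of J2, J1 went from 0.468 ± 0.0216 to 0.622 ± 0.0659. Counting each V–J pair once, whatever its share, left a difference of 0.190 points, because nearly every pair was above 0 in every library.

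All 5 segments had a higher mean in the knockout, and 4 of the 5 passed the limma test (adjusted p under 0.05 over the 11 J segments), with 4 higher and 0 lower. The background is high: 54.5% of the 11 J segments passed. The median log2 fold change was 0.29 over the 5 J1 segments, -0.15 over the 6 others and 0.027 over all 11.

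TRBJ1-4, the fourth along the cluster, had the largest difference. It held 8.03%, 7.96% and 8.26% of the wild-type libraries and 10.1%, 11.5% and 9.03% of the knockout libraries. Every knockout value lay above every wild-type value. The mean rose from 8.08% ± 0.156 to 10.2% ± 1.26 (log2 fold change 0.33, SE 0.090, limma adjusted p = 0.0314).

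TRBJ1-1, the segment nearest to Trbd1 and the most used of the cluster, held 10.6%, 10.3% and 10.3% in wild type, against 11.4%, 13.4% and 10.5% in the knockout. The wild-type values were close together, and knockout replicate 3 fell within their range. With means of 10.4% ± 0.173 and 11.8% ± 1.44 it did not pass (log2 fold change 0.17, SE 0.089, limma adjusted p = 0.107). With the replicate number as a block it did pass (adjusted p = 0.0361 in limma), though equal numbers did not clearly pair the libraries in J shares.

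TRBJ1-2 and TRBJ1-3 are neighbours in the cluster and had like levels. TRBJ1-2 held 6.10%, 5.28% and 4.86% in wild type, against 7.12%, 6.52% and 6.12% in the knockout, and rose from 5.41% ± 0.629 to 6.58% ± 0.502 (log2 fold change 0.29, SE 0.095, limma adjusted p = 0.0314). The groups were apart by a narrow margin, with wild-type replicate 1 just under knockout replicate 3. TRBJ1-3 held 5.64%, 4.97% and 4.84% in wild type, against 6.85%, 5.86% and 6.18% in the knockout, and rose from 5.15% ± 0.432 to 6.30% ± 0.504 (log2 fold change 0.29, SE 0.086, limma adjusted p = 0.0314). Its groups did not overlap either. For both segments, replicate 1 was the highest library of each genotype.

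TRBJ1-5, the segment farthest from Trbd1 among those listed, was the least used of all 11 J segments in both genotypes. It held 2.68%, 2.68% and 3.22% in wild type, against 3.49%, 3.19% and 3.63% in the knockout. The mean rose from 2.86% ± 0.313 to 3.43% ± 0.222 (log2 fold change 0.27, SE 0.090, limma adjusted p = 0.0314), although wild-type replicate 3 lay above knockout replicate 2. In all, 3 of the 5 J1 segments had groups that did not overlap, as did 54.5% of the 11 J segments.

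These calls rest on few libraries. The 4 calls became 0 without wild-type replicate 2 or without knockout replicate 1 and 2 without wild-type replicate 3, and 0 of the 5 passed when each J segment was tested on its own spread alone (adjusted p from 0.104 to 0.219, a test added after the data were seen).

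**Figure D1:**
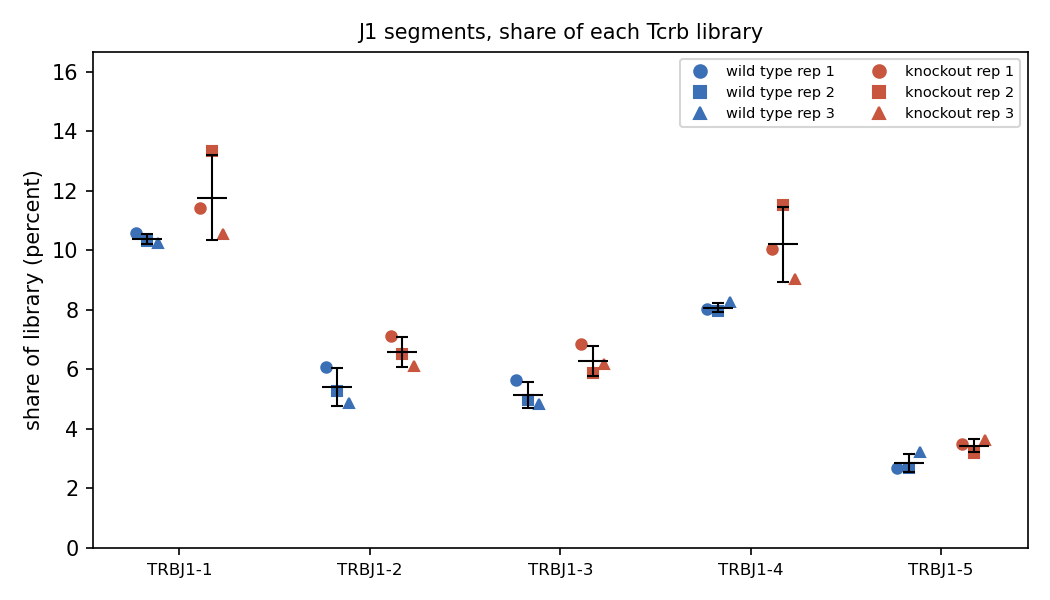
Share of each Tcrb library (percent, vertical axis) held by each J1 segment; points are single libraries (blue wild type, red knockout, marker shape by replicate) and black bars are the mean ± SD of 3 libraries. TRBJ1-2, TRBJ1-3 and TRBJ1-4 show no overlap between genotypes, while TRBJ1-1 and TRBJ1-5 do.

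The order of the 5 segments did not follow their distance from Trbd1. In wild type TRBJ1-1 was highest, followed by TRBJ1-4, TRBJ1-2, TRBJ1-3 and TRBJ1-5. The ranges of TRBJ1-2 and TRBJ1-3 overlapped, although TRBJ1-2 was the higher of the pair in 3 of 3 libraries, and the other neighbours in this order were apart. In the knockout the order of means was the same, but TRBJ1-1 and TRBJ1-4 overlapped as well, and TRBJ1-2 exceeded TRBJ1-3 in 2 of 3 libraries. Among the means of all 11 J segments TRBJ1-1 ranked 6 in wild type and 2 in the knockout, and TRBJ1-4 ranked 7 and 5. These ranks hold near ties. In wild type TRBJ1-1 had a mean of 10.38%, against 10.42% for TRBJ2-4 at rank 5. In knockout replicate 3 TRBJ1-1, at 10.5%, was below TRBJ2-1 (10.9%) and TRBJ2-5 (11.1%).

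The next comparison asked whether the J1 segments moved relative to one another. Within the cluster, no J1 segment passed. TRBJ1-1 made up 32.0%, 33.1% and 32.6% of wild-type J1 joins and 29.4%, 33.0% and 29.7% of knockout J1 joins, so that knockout replicates 1 and 3 were lower and replicate 2 lay in the wild-type range. TRBJ1-4 made up 24.3%, 25.5% and 26.3% in wild type, against 25.8%, 28.5% and 25.4% in the knockout, where replicate 2 alone lay above the wild-type range. The means of TRBJ1-2 were 16.9% ± 1.5 and 17.2% ± 1.09, those of TRBJ1-3 16.1% ± 0.864 and 16.5% ± 1.73, and those of TRBJ1-5 8.98% ± 1.12 and 9.02% ± 1.16. The groups overlapped for each of the 5 segments.

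Of the 11 J segments tested within their own cluster, limma called 0 (0%), and 0 of the 5 J1 segments had an unadjusted p under 0.05, against 1 of all 11. The smallest adjusted p of a J1 segment was 0.967. The 95% interval of the log2 change within the cluster was -0.24 to 0.069 for TRBJ1-1 and -0.090 to 0.22 for TRBJ1-4. It was -0.14 to 0.18 for TRBJ1-2, -0.13 to 0.19 for TRBJ1-3 and -0.16 to 0.17 for TRBJ1-5. All 5 intervals include 0. They rest on nearly 1 common spread that limma gave to the 11 J segments (SE 0.078 to 0.083 for J1). A segment's own spread over these libraries may therefore allow larger shifts than its interval shows, and intervals on that spread were not computed. The smallest shift that these libraries could detect was not tested. The mean J1 number, which weights the segment numbers by their shares and measures the position along the cluster, had a mean of 2.61 ± 0.0426 over wild-type and 2.66 ± 0.0360 over knockout libraries (exact permutation p = 0.2, adjusted p = 0.6).

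**Figure D2:**
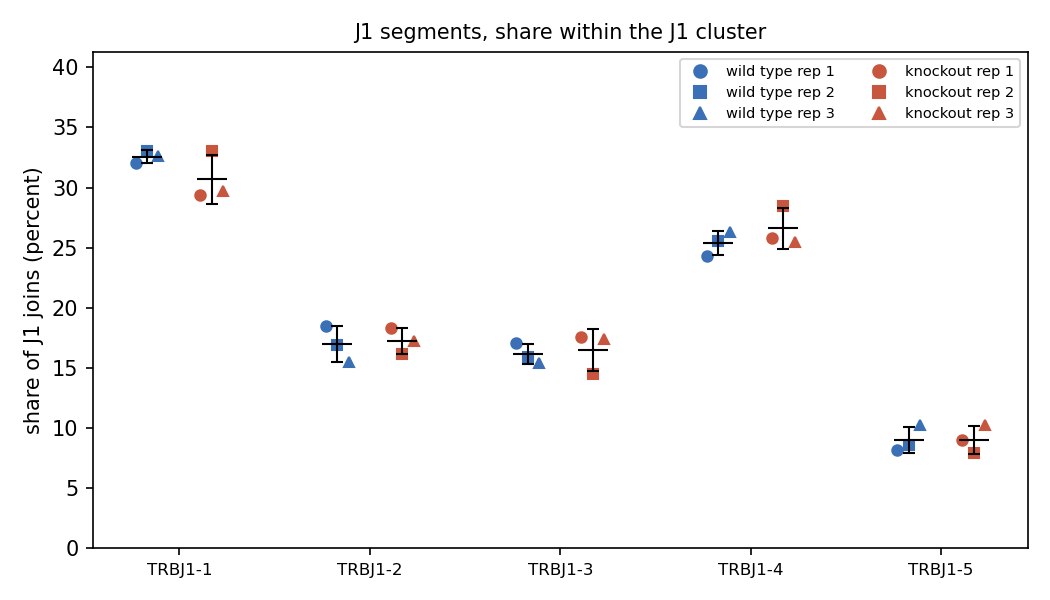
Share of all J1 joins of a library (percent, vertical axis) made with each J1 segment, with points for single libraries and black bars for the mean ± SD of 3 libraries. Wild-type and knockout points overlap for all 5 segments, with TRBJ1-1 at means of 32.6% and 30.7%.

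Which V segments were joined to J1 was compared next, as shares of J1 joins. In wild type, the V segments used most with J1 were TRBV12-1 (9.71% ± 0.125 of J1 joins in wild type, 9.18% ± 1.27 in the knockout), TRBV13-2 (8.97% ± 0.810 and 7.97% ± 0.540), TRBV5 (8.58% ± 2.63 and 8.94% ± 2.88) and TRBV13-1 (8.39% ± 1.27 and 6.36% ± 1.40). TRBV3 held 7.10% ± 0.499 and 7.37% ± 2.92, TRBV16 6.51% ± 0.778 and 6.31% ± 0.797, and TRBV29 5.33% ± 0.295 and 6.02% ± 0.957. In the knockout means TRBV5 stood above TRBV13-2, and TRBV3 above TRBV13-1. TRBV2 held 4.03% ± 0.188 and 5.85% ± 1.1, and TRBV17 3.93% ± 0.601 and 5.28% ± 1.22. None of these 9 passed. TRBV3 in knockout replicate 2, at 10.7% of J1 joins, was far from the 5.30% and 6.10% of the other knockout libraries.

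TRBV20 was the V segment that passed among J1 joins. It made up 3.36%, 3.37% and 3.09% of J1 joins in wild type, against 4.65%, 5.79% and 7.0% in the knockout. All 3 knockout libraries lay above the narrow wild-type range. The mean rose from 3.27% ± 0.162 to 5.81% ± 1.17 (log2 fold change 0.81, SE 0.22, limma adjusted p = 0.0245). Of 20 V segments tested 1 was called (5%), and 3 had an unadjusted p under 0.05. TRBV15 held 5.75%, 5.19% and 4.67% in wild type, against 4.26%, 3.09% and 3.10% in the knockout, with no overlap. It was not called (log2 fold change -0.59, limma adjusted p = 0.136), but was lower with the replicate number as a block (adjusted p = 0.0373 in limma). In all, the groups did not overlap for 5 of the 20 V segments. The lower TRBV15 was not particular to J1: joined to J2 it went from 3.94% ± 0.146 to 2.57% ± 0.0913 of the library, also with no overlap. Nor was the higher TRBV20 particular to J1. Joined to J2 it held 1.97%, 2.24% and 1.74% of the wild-type libraries. In the knockout libraries it held 2.40%, 2.38% and 2.70%, again with no overlap. The TRBV20 call was lost without any one of the 3 wild-type libraries or without knockout replicate 3, without a filter on low shares, and on its own spread alone (adjusted p = 0.198).

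The breadth of V use among J1 joins was alike in both genotypes by the measures taken. The entropy of V use came to 4.17 ± 0.0838 bits for the wild type, against 4.17 ± 0.0305 for the knockout libraries (exact permutation p = 1, adjusted p = 1). V use of J1 joins overlapped that of J2 joins by 93.5% ± 1.49 and 93.5% ± 1.51, where 100% would be equal use (exact permutation p = 0.9, adjusted p = 1). The V segment used most took 10.4% ± 1.05 and 11.1% ± 0.955 of J1 joins (exact permutation p = 0.5, adjusted p = 1).

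The balance of J1 and J2 was then followed within each V segment, which asks whether the gain of J1 came with a few V segments or many. J1 joins took a larger part of the knockout mean in 19 of the 20 V segments tested. The J1 to J2 ratio was higher in the knockout for 8 of 20 V segments (40% called by limma, 8 higher and 0 lower), and the median log2 fold change of the ratio over the 20 was 0.37. The groups did not overlap for 10 of the 20, and the knockout was higher in each of those 10.

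TRBV20 had the largest difference in the part joined to J1. J1 took 36.0%, 31.9% and 35.7% of its joins in wild type, against 43.0%, 49.6% and 47.9% in the knockout. The groups were far apart (log2 fold change of the ratio 0.73, SE 0.18, limma adjusted p = 0.00115). As shares of the library, TRBV20 joined to J1 went from 1.04% ± 0.0705 to 2.21% ± 0.354, and TRBV20 joined to J2 from 1.99% ± 0.249 to 2.49% ± 0.181.

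TRBV1, the V segment at the far 5′ end of the locus, had J1 in 32.3%, 28.2% and 27.0% of its wild-type joins and in 40.3%, 45.8% and 36.7% of its knockout joins. Here too the groups did not overlap (log2 fold change of the ratio 0.75, SE 0.18, limma adjusted p = 0.00115). Its mean share with J1 was 1.06% and 1.41% of the library, and with J2 2.54% and 2.03%, so the mean with J2 was lower in the knockout, unlike TRBV20.

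TRBV17 had the smallest J1 part in wild type of all V segments tested. J1 took 25.5%, 22.5% and 22.5% of its wild-type joins and 35.9%, 30.8% and 33.6% of its knockout joins, with no overlap (log2 fold change of the ratio 0.71, limma adjusted p = 0.00129). The mean J1 part of TRBV4 rose from 31.2% to 41.3%, that of TRBV16 from 32.3% to 40.3% and that of TRBV5 from 31.7% to 38.8%, each with groups that did not overlap. TRBV23 (29.2% and 37.4%) and TRBV14 (24.0% and 30.0%) were also called, though their groups overlapped. TRBV13-3 was the exception among the 20: J1 took 39.1% ± 1.11 of its joins in wild type and 38.0% ± 4.92 in the knockout. TRBV31, which lies downstream of Trbc2 and joins by inversion, had 34.4% ± 3.10 and 38.8% ± 4.32 and was not called (limma adjusted p = 0.172).

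In this fit limma gave nearly 1 common spread to all V segments. On the spread of each V segment alone 0 of 20 passed, and the count of 8 fell to 3 when knockout replicate 2 was left out, to 4 when wild-type replicate 1 or the filter was left out and to 5 when wild-type replicate 3 was, and grew to 15 without knockout replicate 3. With the ratios centred in each library, so that a V segment is compared with the other V segments, 1 of 20 was called and 0 of the 8 were called above the rest. The call was TRBV13-3, which was lower (log2 difference -0.48, limma adjusted p = 0.0379). It rests on 1 common spread (SE 0.148) and was not tested on its own spread. Before centring, J1 took 39.2%, 40.2% and 38.0% of TRBV13-3 joins in wild type, against 42.1%, 39.3% and 32.5% in the knockout. Only knockout replicate 3 lay below the wild-type range.

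**Figure D3:**
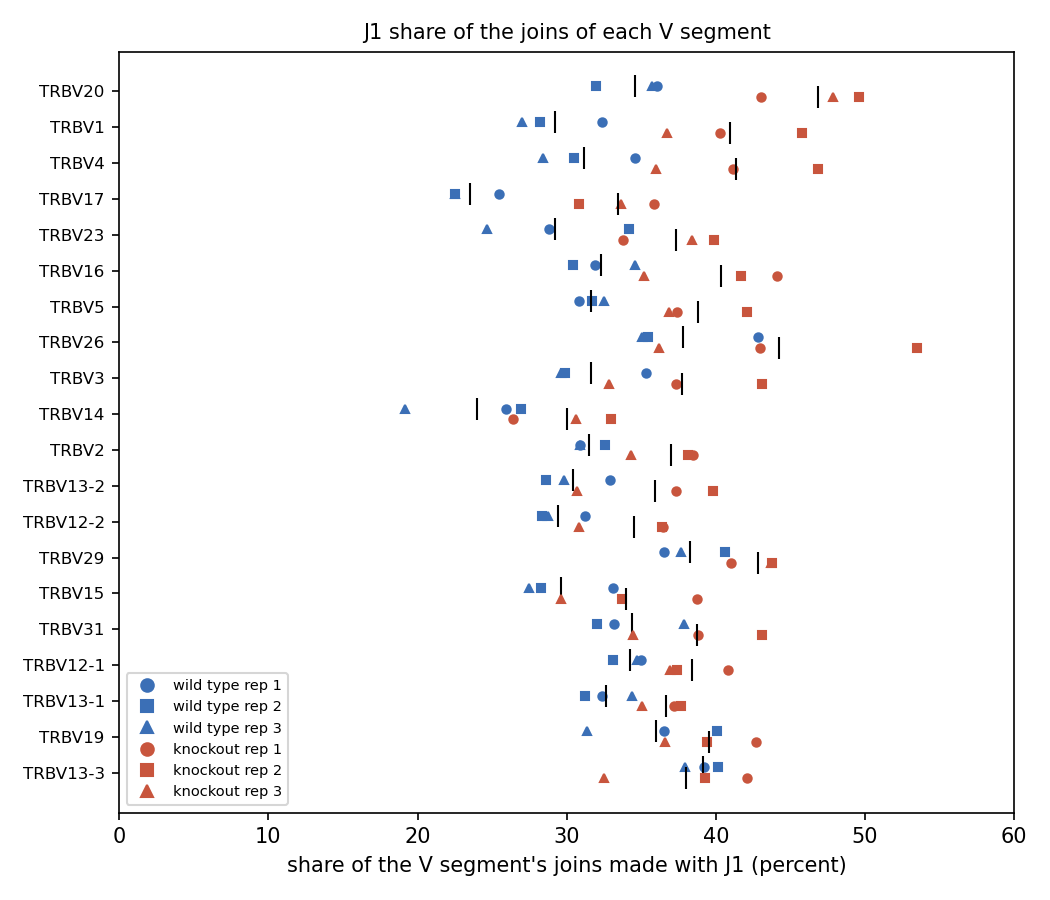
Percentage of the joins of each V segment that were made with J1 (horizontal axis), for the 20 V segments tested, ordered by the difference of the means; points are single libraries (blue wild type, red knockout) and black ticks are means of 3. The knockout mean lies to the right of the wild-type mean for 19 V segments, with TRBV20 at 34.6% and 46.8%, and to the left for TRBV13-3.

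Grouped by place in the locus, J1 took 31.3% ± 1.26 and 38.9% ± 3.65 of the joins of the distal V segments (Trbv1 to Trbv5) and 30.2% ± 1.52 and 38.5% ± 1.83 of those of the central V segments (Trbv14 to Trbv20). It took 35.2% ± 1.72 and 40.8% ± 2.81 of the joins of the V segments nearest to the D segments (Trbv23 to Trbv30). In these 3 classes the groups did not overlap. In the Trbv12 and Trbv13 families, at 32.6% ± 1.11 and 36.7% ± 2.90, and in TRBV31 they did. Whether the classes differ from one another was not tested.

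Single V–J pairs add up to the J1 and J2 totals, so their direction is not separate evidence for the higher J1 share. Of the 209 pairs that averaged 0.1% or more of a library, 91 were J1 pairs. Limma called 0 of the 209 (0%), while 25 had an unadjusted p under 0.05, 13 of them J1 pairs. Among the 91 J1 pairs, 70 had a log2 fold change above 0, with a median of 0.21 against -0.13 over the J2 pairs and 0.013 over all 209. The groups did not overlap for 15 of the 91 J1 pairs, all higher in the knockout, and for 18.2% of all pairs, so the J1 share is not above the background.

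By segment, 15 of 19 TRBJ1-4 pairs lay above 0 (median log2 fold change 0.33) and 14 of 19 TRBJ1-2 pairs (median 0.48). For TRBJ1-3 it was 14 of 18 (median 0.24), for TRBJ1-1 14 of 19 (median 0.12) and for TRBJ1-5 13 of 16 (median 0.12).

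The largest J1 pair was TRBV12-1 with TRBJ1-1, at 1.08% ± 0.135 of the wild-type and 1.09% ± 0.326 of the knockout libraries. TRBV5 with TRBJ1-1 held 1.01% ± 0.218 and 1.04% ± 0.226, and TRBV13-1 with TRBJ1-1 held 0.807% ± 0.0254 and 0.755% ± 0.129. These pairs of TRBJ1-1 differed by less than the SD of the knockout libraries, and their groups overlapped. TRBV13-2 with TRBJ1-1 held 0.802%, 0.849% and 0.836% in wild type, against 0.906%, 0.918% and 0.956% in the knockout, a small difference with no overlap (log2 fold change 0.16, limma adjusted p = 0.884). TRBV5 with TRBJ1-4 held 0.788% ± 0.320 and 0.963% ± 0.259, and TRBV13-2 with TRBJ1-4 held 0.740% ± 0.162 and 0.923% ± 0.178, both with overlap.

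Chosen after their values were seen, 2 more pairs of TRBJ1-4 stood out. TRBV20 with TRBJ1-4 had the smallest adjusted p of the J1 pairs. It held 0.191%, 0.210% and 0.231% in wild type, against 0.456%, 0.559% and 0.560% in the knockout. The knockout values were all above the wild-type values (log2 fold change 1.29, SE 0.26, limma adjusted p = 0.0679). TRBV26 with TRBJ1-4 had the largest fold change, 1.54 on the log2 scale, but it held 0.164%, 0.186% and 0.00890% in wild type, against 0.188%, 0.519% and 0.110% in the knockout. Its groups overlapped, and the fold change rests on the low value of wild-type replicate 3.

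TRBV31 pairs were uneven across libraries. TRBV31 with TRBJ1-2 held 0.355%, 0.251% and 0.436% in wild type, against 0.376%, 0.106% and 0.154% in the knockout (log2 fold change -0.86, limma adjusted p = 0.395). Its pair with TRBJ1-1 held 0.331% ± 0.159 and 0.423% ± 0.124, and that with TRBJ1-4 0.344% ± 0.0770 and 0.344% ± 0.0936. The fold changes of TRBV31 pairs thus differed in sign over the 5 segments, and none passed.

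**Figure D4:**
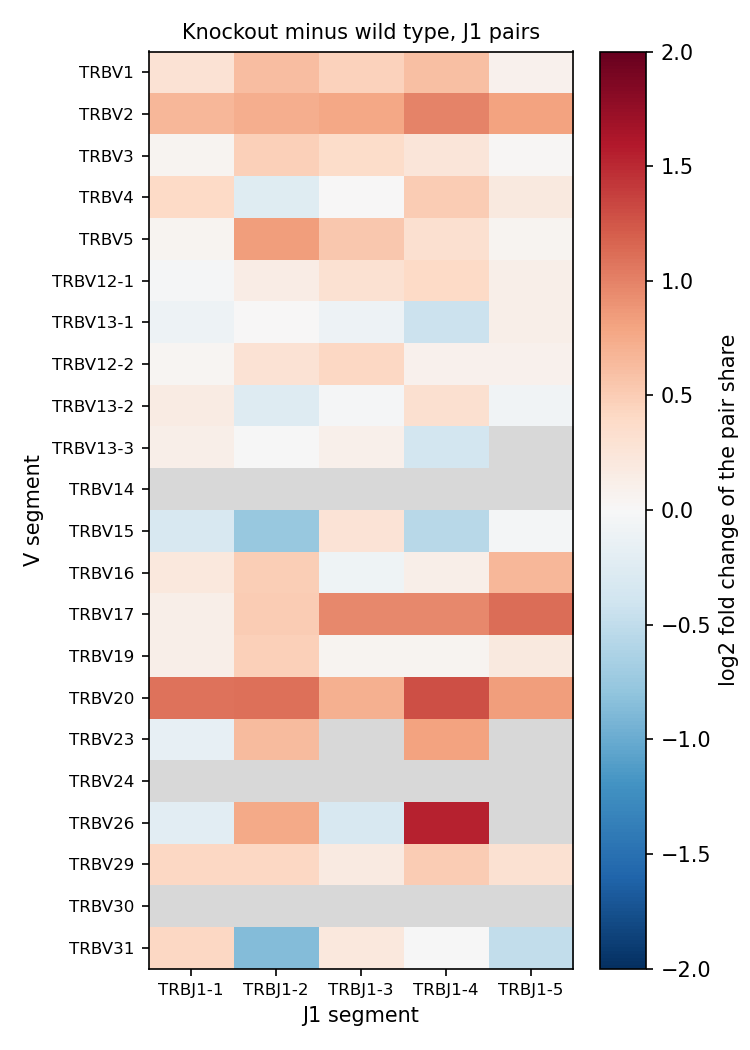
Log2 fold change of the share of each J1 pair (colour, red higher and blue lower in the knockout), with V segments as rows in locus order and J1 segments as columns; grey cells had a mean share under 0.1% and were not tested. The rows above 0 in all 5 columns are TRBV1, TRBV2, TRBV3, TRBV5, TRBV12-2, TRBV17, TRBV19, TRBV20 and TRBV29, in places by little (TRBV3 with TRBJ1-5 at 0.016). The lowest values are those of TRBV31 (-0.86) and TRBV15 (-0.75) in the column of TRBJ1-2.

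V use within each J segment was tested as well, which takes out the change of the J segment's own share. Limma called 0 of 209 pairs (0%), with 19 at an unadjusted p under 0.05, of which 12 were J1 pairs. The median log2 change of the 91 J1 pairs was -0.050, against -0.0021 over all 209.

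Apart from genotype, some V segments and J1 segments were found together more or less often than their totals would give. This was read as the pair's share divided by the product of its V share and its J share, so that 1 is what the totals alone would give. Of the 91 J1 pairs, 6 were above 1 in all 6 libraries (6.59%) and 6 were below 1 in all 6 (6.59%). Of all 209 pairs, 9 were above (4.31%) and 14 below (6.70%), so the J1 share below 1 is not above the background. How many pairs would fall on 1 side by noise alone was not tested. The lowest mean ratio was 0.50 for TRBV15 with TRBJ1-2, with single libraries from 0.220 to 0.730. TRBV17 with TRBJ1-5 followed at 0.540, TRBV12-1 with TRBJ1-5 at 0.643 and TRBV5 with TRBJ1-2 at 0.711, and TRBV12-2 and TRBV13-2 with TRBJ1-1 were at 0.797 and 0.891. Above 1 in every library, TRBV13-3 with TRBJ1-2 had a mean ratio of 1.35 and TRBV12-1 with TRBJ1-2 one of 1.24, TRBV2 with TRBJ1-2 was at 1.13, and TRBV15, TRBV16 and TRBV19 with TRBJ1-1 lay between 1.14 and 1.15. TRBV15 was thus low with TRBJ1-2 and high with TRBJ1-1, and TRBV12-1 was high with TRBJ1-2 and low with TRBJ1-5. These ratios are descriptive, and pairs were named for being on one side of 1 in all 6 libraries. TRBJ1-3 and TRBJ1-4 had no such pair.

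**Figure D5:**
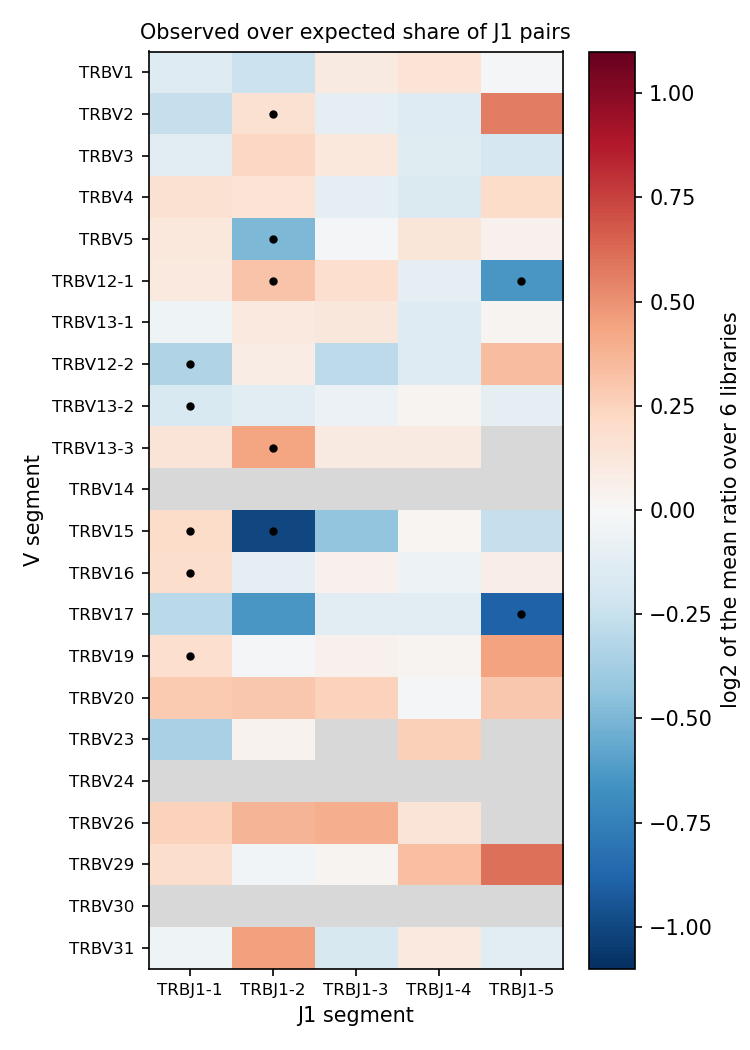
Observed over expected share of each J1 pair (colour, log2 of the mean ratio over 6 libraries), with V segments as rows in locus order and J1 segments as columns; black dots mark the pairs above 1 or below 1 in all 6 libraries, and grey cells were not tested. The deepest blue cell is TRBV15 with TRBJ1-2 at a ratio of 0.50, and no dot falls in the columns of TRBJ1-3 and TRBJ1-4.

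By V use, the J segment nearest to a J1 segment was mostly a Trbj2 segment, by small margins. Since 6 of the 11 J segments are Trbj2 segments, this is not read as a trait of J1. TRBJ1-5, for example, overlapped TRBJ2-4, TRBJ2-7 and TRBJ1-1 by 84.2%, 84.1% and 84.0%. Whether the J1 segments form a group of their own was not tested. Likeness was measured as the overlap of V shares between 2 J segments, as a mean over the 6 libraries. TRBJ1-1 was nearest to TRBJ2-4 (89.9%) and TRBJ1-4 (89.4%), and TRBJ1-4 to TRBJ1-1 and TRBJ2-4 (88.6%). TRBJ1-2 was nearest to TRBJ2-7 (87.0%) and TRBJ2-1 (85.9%), TRBJ1-3 to TRBJ2-7 and TRBJ2-4 (both 87.3%), and TRBJ1-5 to TRBJ2-4 (84.2%) and TRBJ2-7 (84.1%). TRBJ1-1 and TRBJ1-4, the most abundant of the cluster, had the highest overlaps; the part of abundance in this was not tested. The J1 pair least alike was TRBJ1-2 and TRBJ1-5 (79.0%).

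Knockout replicate 2 stood apart in some overlaps of V use, inside the cluster and with Trbj2 segments. Its overlap of V use between TRBJ1-1 and TRBJ1-4 was 79.4%, against 89.3% to 94.6% in the other 5 libraries, and that between TRBJ1-4 and TRBJ1-5 was 68.1%, against 83.8% to 89.4%. Its overlap between TRBJ1-4 and TRBJ2-4 was low too, at 81.5% against 88.8% to 91.3%. Between TRBJ1-1 and TRBJ1-2 it lay within the range of the others (85.7%, against 83.8% to 88.4%). Knockout replicate 2 also had the highest shares of TRBJ1-1 and TRBJ1-4 and the coarsest resolution. Without it the J1 cluster differed by 5.33 percentage points between genotypes in place of 6.41, and 3 of the 5 J1 segments were called.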

How the data were processed

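Total RNA of thymocytes was copied by 5′ RACE and the Tcrb cDNA amplified with a constant-region primer, per the labels' protocols; reads were trimmed with fastp, per the submitters' processing notes, with no version stated. Not given in the sources used here were the aligner, the segment caller, the genome build, any molecular identifiers, and whether reads or clonotypes were counted. The deposited values are in percent of a library, by V and J segment; total rows and columns were left out.

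From these, log2(percent + 0.00570) was tested with limma 3.58.1 in R 4.3.3, the pseudocount being the smallest value above 0 in the 6 Tcrb libraries. Fits covered J and V–J features of at least 0.1% and V segments of at least 0.5% of the library on average, all 6 libraries and no block; p-values are Benjamini-Hochberg adjusted over each fit, with calls at 0.05, and fold changes on this scale understate those of low shares. Single values used an exact two-sided permutation test. Tables were handled with pandas 2.3.3 and numpy 2.4.6 in Python 3.11.15, permutations with scipy 1.17.1 and plots with matplotlib 3.10.9.

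Equal replicate numbers were taken to pair libraries where residuals correlated over 0.1 for each number. J shares (r of 0.575, 0.159 and 0.293), shares within a cluster (0.509, 0.349, 0.253), pairs (0.375, 0.250, 0.324), V within each J segment (0.362, 0.241, 0.312) and V among J1 joins (0.438, 0.408, 0.469) passed, and the J1 to J2 ratios did not. For J shares, libraries of unlike numbers reached an r of 0.294, as high as that of replicate 3 and above that of replicate 2. Equal numbers thus did not clearly stand out as pairs in J shares. In the other fits that passed, the highest r between unlike numbers was 0.0679. The labels give no source of such pairing.

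The members, lists and rule for named segments were chosen with earlier results of these data known. The rule took all J1 segments, V segments with at least 5% of J1 joins in a genotype, called V segments, TRBV31, the 5 largest J1 pairs of each genotype and any called J1 pair, and the 2 J segments nearest in V use. Alternatives were other pseudocounts, no filter, centred log-ratios, pairs counted once, no TRBV31, the block and leaving out each library; testing each feature on its own spread and centring the ratios were added after seeing the data.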

Additional observations from a re-analysis of the deposited data

How the results depend on the processing

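Among J segments, 4 J1 calls became 0 with pairs counted once or on the spread of each segment alone, and 0 to 5 leaving out a library. With pairs counted once the log2 fold changes of TRBJ1-1, TRBJ1-2 and TRBJ1-4 were each -0.016, and within the cluster those of TRBJ1-2 and TRBJ1-4 were -0.022 and that of TRBJ1-3 -3.0e-06. By construction, this alternative only counts pairs above 0. Within the cluster TRBJ1-5 was at -0.0023 with a pseudocount of 0.1. Leaving out a library gave -0.041 to 0.087 for TRBJ1-2, -0.022 to 0.12 for TRBJ1-3 and -0.089 to 0.10 for TRBJ1-5. The 0 J1 pairs became 1 with a pseudocount of 0.1 and 0 to 2 leaving out a library, as did the 0 within each J segment (0 to 2). Among J1 joins the 1 V segment became 0 without a filter, 2 with the replicate block, 0 on its own spread and 0 to 1 leaving out a library. The 8 ratios became 4 without a filter, 0 on their own spread, 1 when centred and 3 to 15 leaving out a library; with a replicate block, for libraries that share only a number here, 8 were called. The block changed no other call than those given with the results. The entropy difference was -0.046 to 0.034 bits leaving out a library. The difference in overlap was -0.055 percentage points without TRBV31 and -0.79 to 0.79 leaving out a library. Where the construction of an alternative does not show it, the cause was not tested. Centring J shares left 4 J1 segments called higher and 0 lower, and moved the median of all J segments by -0.051. Depth is unknown, and counting error was not set beside the spread between libraries.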
